A study of Rhodotorula toruloides with 18 samples.

Results

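A group of 46 genes of the oil-storing yeast Rhodotorula toruloides had less transcript after 8 h on succinate than without carbon in both the cbr1 deletion strain and the wild type, while their wild type level on cellobiose stayed close to that without carbon. They were chosen by measured values among 8484 genes. Levels were in TPM (a transcript's share of all transcripts in its library), so a change in the amount of mRNA per cell could not be seen, and groups were compared by their means of log2(TPM + 1). A gene was taken when its mean over 18 libraries was at least 1 TPM, its drop from no carbon to succinate was at least 1 on that log2 scale in each strain, its wild type means without carbon and on cellobiose differed by less than 0.5, and the strains differed by less than 0.75 on cellobiose. Up to 150 genes were allowed, and 46 met the conditions.

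Cells that lose their carbon source turn on transcripts for using other carbon compounds and recycling their own material, and a usable carbon source lowers many of them again. This lowering, carbon catabolite repression, is strongest with preferred sugars such as glucose in most yeasts. Cellobiose is a glucose disaccharide that must be taken up or cleaved before use, and succinate is a dicarboxylic acid of the tricarboxylic acid cycle that feeds sugar synthesis through gluconeogenesis.

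The study measured poly-A RNA of strain IFO0880 in 6 groups of 3 libraries. The deletion strain carried yku70::HygR and cbr1::NatR, and the strain that the labels call wild type carried yku70::HygR. Both thus lacked an intact yku70, a gene whose product takes part in joining broken DNA ends. cbr1 is, per the series title, connected with a transcription factor in carbon source use. Each strain was grown overnight in rich glucose medium, washed and kept in constant light at 28 degrees C in yeast nitrogen base of pH 6.2 with 1% succinate, with 1% cellobiose or with no carbon source. The labels describe the replicates as biological triplicates but do not say how many transformant clones were used. The file gives gene identifiers without names, and 0 of them matched the 8171 genes of the reference table, so no function is given for any gene.

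The number of reads behind each value was unknown. Genes listed at 0 numbered 149 to 246 per library, and 0 of the 46 were among them. Across all 7938 tested genes, Pearson's r between libraries of 1 group had a median of 0.958, as a description over genes, against 0.857 between groups. A pair of libraries bears on most values below. Replicate 3 of the deletion strain on succinate resembled wild type replicate 2 on succinate (r = 0.987), and replicate 3 of the wild type without carbon was the lowest of its group for 84.9% of all tested genes. Whether the label of the deletion library is right could not be checked, since the cbr1 transcript was not analysed here. Medians and calls that either library moved most are also given without it. Irregular correlations were not limited to these. Deletion replicate 1 on succinate had r = 0.960 with wild type replicate 2 on cellobiose, against 0.959 and 0.921 within its group. Wild type replicate 3 without carbon had r = 0.931 with wild type replicate 3 on succinate, against 0.920 and 0.958 within its group.

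The 46 genes were a small share of those lowered on succinate, with no gap at the limits. In both strains 1587 genes fell by at least 1. Of these, 1277 genes (80.5%) were also lower by at least 1 on wild type cellobiose than without carbon, and 228 genes (14.4%) were lower by 0.5 to under 1. Another 77 genes (4.85%) lay within 0.5, and 5 genes were higher by at least 0.5. The condition on the strains on cellobiose left 46 of the 77. The median difference between cellobiose and no carbon over the 1587 genes was -0.94 in the deletion strain and -1.69 in the wild type.

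**Figure D1:**
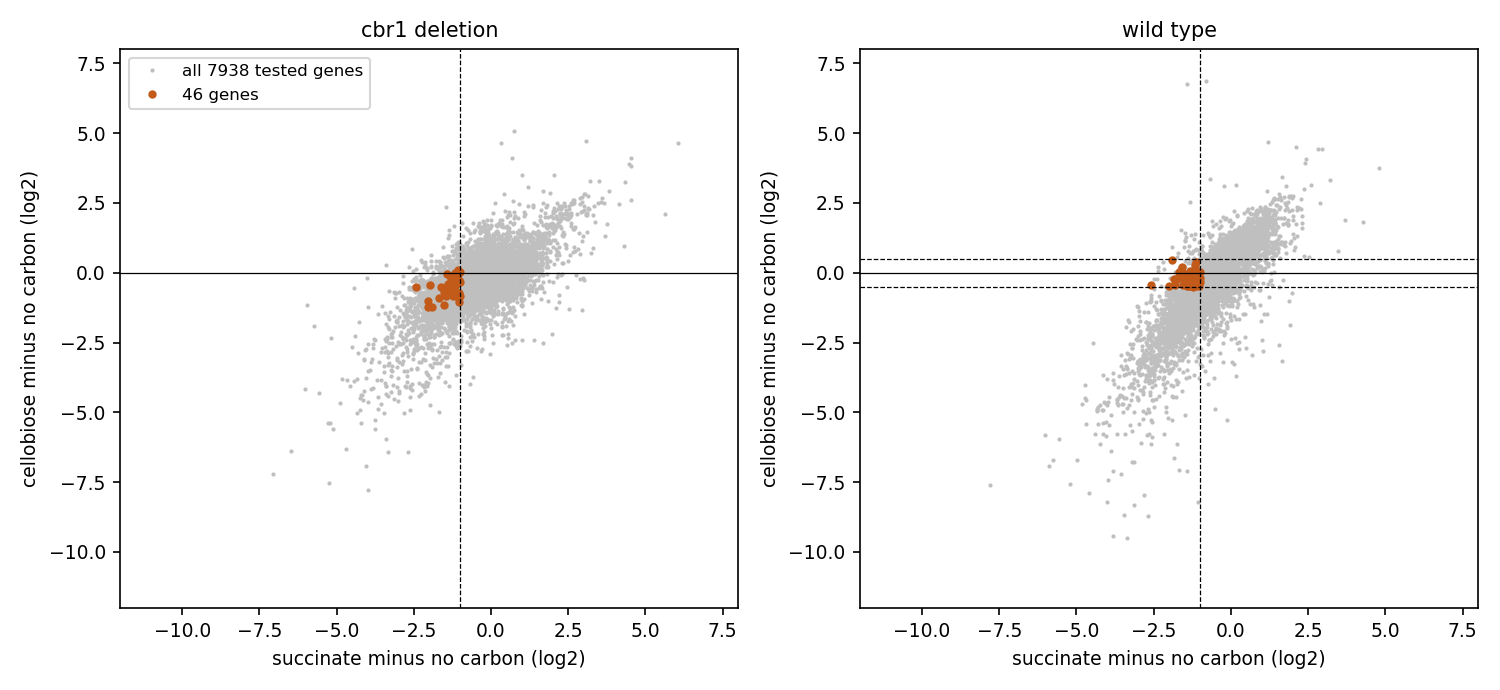
Each point is a gene, placed by its log2 difference between succinate and no carbon (horizontal axis) and between cellobiose and no carbon (vertical axis), in the cbr1 deletion strain (left) and the wild type (right). The 46 genes are orange and all 7938 tested genes grey, and dashed lines mark the rule's limits of -1 and, in the wild type, 0.5 on either side of 0. Both axes use the same libraries without carbon. In the wild type the 46 genes sit near the upper edge of the genes lowered on succinate, and in the deletion strain they spread to -1.24 on the vertical axis.

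Most of the 46 genes passed the limits narrowly. The smaller of a gene's drops in the strains had a median of 1.17 and ran from 1.00 to 2.44. It was under 1.25 for 30 genes, between 1.25 and 1.5 for 11 genes and at least 1.5 for 5 genes. The last genes inside this limit were RTO4_8390 and RTO4_8715, with smaller drops of 1.0044 and 1.0021. RTO4_12005 and RTO4_8655, at 0.9993 and 0.9888, were just outside. For the distance between wild type no carbon and cellobiose, RTO4_16262 (0.484) and RTO4_10482 (0.499) were just inside, and RTO4_15814 (0.513) and RTO4_14572 (0.513) just outside. For the distance between the strains on cellobiose, RTO4_16175 (0.728) and RTO4_8521 (0.732) were just inside, and RTO4_9153 (0.756) and RTO4_15081 (0.763) just outside. RTO4_15814 dropped by 1.95 in the deletion strain and 2.10 in the wild type, and its smaller drop was exceeded by 1 of the 46 genes.

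Together the genes were of moderate abundance. Their group means ran from 3.32 to 210 TPM in the deletion strain and 1.42 to 109 TPM in the wild type on succinate, and from 13.4 to 547 TPM in the deletion strain and 6.12 to 289 TPM in the wild type without carbon. In sum they held 2468, 2052 and 1080 TPM in the deletion libraries on succinate, against 6183, 4689 and 3199 TPM in the deletion libraries without carbon. In the wild type the sums were 1226, 1080 and 986 TPM on succinate, against 4266, 3225 and 1701 TPM without carbon. In each strain every succinate library lay below every library without carbon, and replicate 3 was the lowest library of each of these 4 groups. The mean sum on succinate was 39.8% of that without carbon in the deletion strain and 35.8% in the wild type, a description of values that chose the genes.

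On cellobiose the sums were 3270, 3744 and 2571 TPM in the deletion strain and 2051, 2274 and 3254 TPM in the wild type. These were 68.1% and 82.4% of the strains' mean sums without carbon, the deletion strain first. The cellobiose libraries overlapped those without carbon in both strains, and lay above all succinate libraries of the same strain. The order of media, though not of replicates, was also seen in the mean ranks within a library, which a common scale factor cannot change. The median gene of the group stood at the 60.9, 55.7 and 37.0 percentiles of the 7938 tested genes in the deletion libraries on succinate, against 76.3, 71.7 and 68.0 without carbon. In the wild type it stood at the 41.4, 44.5 and 50.4 percentiles on succinate, against 73.0, 63.9 and 58.8 without carbon. On cellobiose it stood at 67.5, 69.5 and 65.8 in the deletion strain and at 57.9, 58.9 and 66.9 in the wild type.

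**Figure D2:**
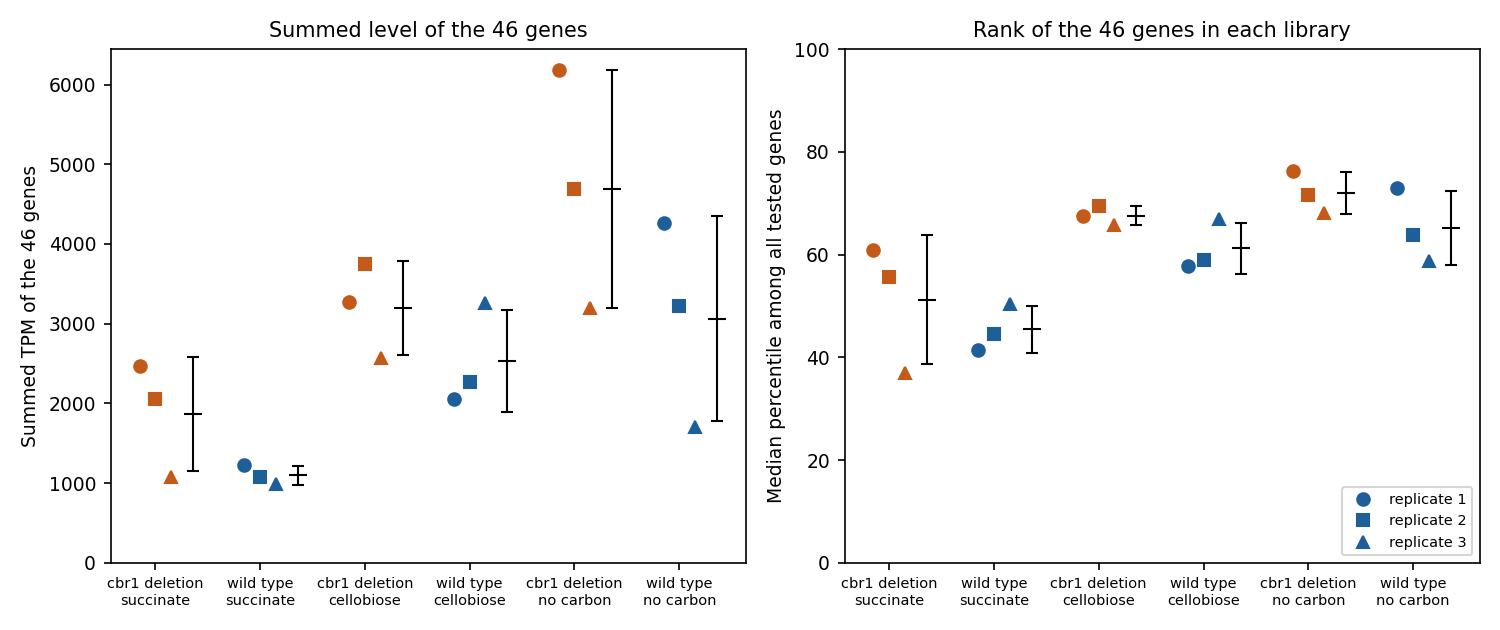
Left, summed TPM of the 46 genes in each library (points, with a shape for each replicate number) and the group mean with SD (black, n = 3). Right, the median percentile of the 46 genes among the 7938 tested genes of the same library. Orange is the cbr1 deletion strain and blue the wild type. The succinate libraries are lowest in each strain, between 986 and 2468 TPM, and replicate 3 of the wild type without carbon, at 1701 TPM, lies below 2 of the deletion libraries on succinate.

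RTO4_8592 had the largest drop by the rule. It had 5.85, 2.84 and 2.20 TPM in the deletion libraries on succinate, against 22.6, 27.3 and 19.0 TPM in the deletion libraries without carbon. Its wild type libraries had 1.95, 1.92 and 1.92 TPM on succinate, against 21.0, 19.6 and 11.4 TPM without carbon. All succinate libraries of both strains lay below all others, by a small margin between deletion replicate 1 on succinate and wild type replicate 3 on cellobiose. On cellobiose it had 15.0, 19.8 and 12.6 TPM in the deletion strain and 15.4, 14.9 and 7.83 TPM in the wild type. The log2 differences between succinate and no carbon were -2.44 in the deletion strain and -2.60 in the wild type, each ± 0.33 (limma SE). This SE uses a spread shared by all groups, so it is the same for both strains.

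RTO4_10091 came next. It had 4.13, 3.42 and 2.41 TPM in the deletion libraries on succinate, against 23.5, 20.4 and 8.09 TPM without carbon. In the wild type it had 1.03, 1.69 and 1.54 TPM on succinate, against 14.2, 11.9 and 2.84 TPM without carbon. The succinate libraries were lower in both strains with no overlap, and the wild type replicate 3 without carbon came close to them. On cellobiose it had 12.1, 13.8 and 8.86 TPM in the deletion strain and 14.5, 15.0 and 7.09 TPM in the wild type.

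The genes with the highest mean without carbon were RTO4_10012 and RTO4_9596. RTO4_10012 had 215, 165 and 61.2 TPM in the deletion libraries on succinate, against 919, 405 and 316 TPM without carbon. Its wild type libraries had 58.0, 55.2 and 67.2 TPM on succinate, against 408, 249 and 140 TPM without carbon. Succinate was lower with no overlap in each strain. On cellobiose it had 191, 268 and 177 TPM in the deletion strain and 130, 164 and 244 TPM in the wild type, so that in the deletion strain the cellobiose libraries overlapped those on succinate.

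RTO4_9596 had 268, 223 and 139 TPM in the deletion libraries on succinate, against 491, 499 and 320 TPM without carbon. Its wild type libraries had 107, 113 and 107 TPM on succinate, against 361, 337 and 168 TPM without carbon. On cellobiose it stayed high in both strains, with 471, 504 and 404 TPM in the deletion strain and 288, 296 and 276 TPM in the wild type. Among the 46 genes its difference between cellobiose and no carbon in the deletion strain was the most positive, 0.10 ± 0.31 (limma SE; adjusted p = 0.88).

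**Figure D3:**
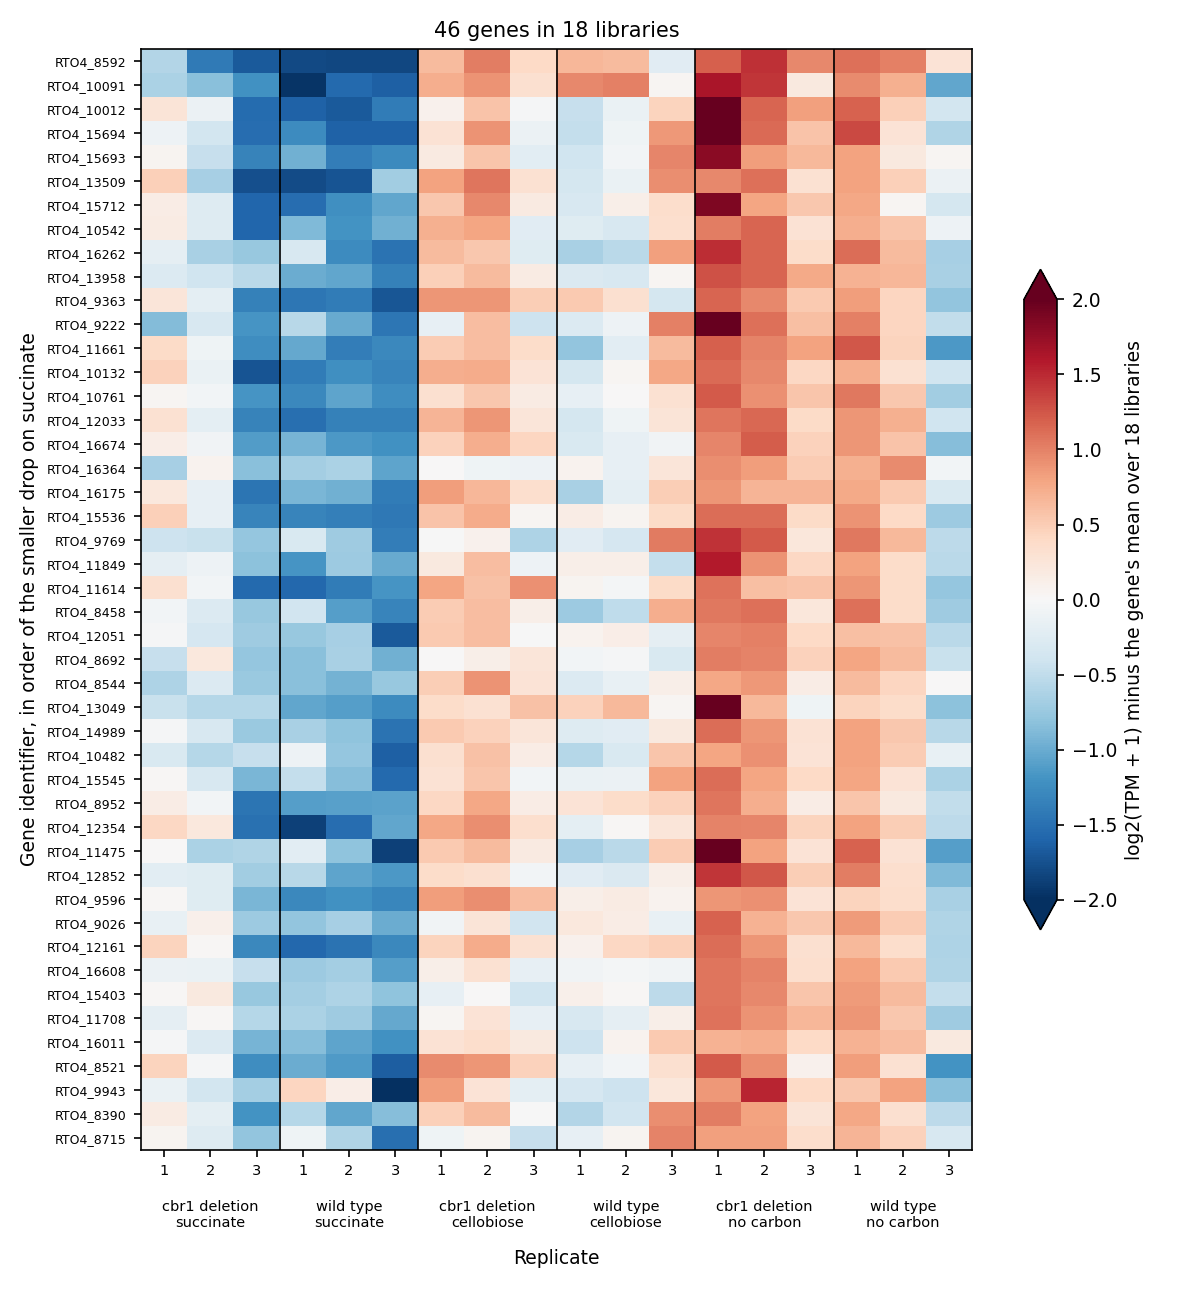
Each row is 1 of the 46 genes, in order of its smaller drop on succinate, and each column a library. Colour is log2(TPM + 1) minus the gene's mean over the 18 libraries, from blue (lower) to red (higher), with values beyond 2 shown at the end colours. The succinate columns are blue except in deletion replicates 1 and 2, where many genes are near their mean, and the column of wild type replicate 3 without carbon is pale blue for most genes.

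Against the medium without carbon, limma called 44 of the 46 genes lower on succinate in the deletion strain, where 21.9% of all tested genes were called lower. In the wild type 43 of the 46 genes were called, where 27.6% of all tested genes were. A gene was called at a Benjamini-Hochberg adjusted p under 0.05 over all tested genes and a log2 difference of at least 1 in size. The genes were chosen on these differences, so the counts describe the choice. Fits restricted to the libraries compared called 39 in the deletion strain and 29 in the wild type, against 21.6% and 21.5% of all tested genes. In the deletion strain the count was 15 without its replicate 3 on succinate, and 13 and 21 without its replicates 1 and 2 in medium lacking carbon. The wild type count was 26 without replicate 3 on succinate, and 19 and 23 without replicates 1 and 2 in medium lacking carbon. At the count of 19, 19.9% of all tested genes were called lower. The medians were -1.24 in the deletion strain and -1.32 in the wild type, against -0.39 and -0.59 over all tested genes. Leaving out deletion replicate 3 on succinate gave a median of -0.93 in the deletion strain, and leaving out wild type replicate 3 in medium lacking carbon gave -1.68 in the wild type. Replicates did not overlap, with succinate below no carbon, for 41 of the 46 genes in the deletion strain (37.5% of all tested genes) and for 34 in the wild type (33.3%). The wild type libraries that overlapped followed a common order, since replicate 3 without carbon was the lowest of its group for all 46 genes (84.9% of all tested genes). Replicate 3 without carbon was also the lowest of its group for all 46 genes in the deletion strain (78.0% of all tested genes).

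The drop depended on how libraries are scaled. Most genes were lower on succinate in TPM, and median-ratio scaling, which sets the typical gene equal between libraries, brought the median over all tested genes to -0.01 in the deletion strain and -0.02 in the wild type. The 46 genes then had medians of -0.87 and -0.73, and all remained below 0 in both strains. Only 5 of the 46 still dropped by at least 1 in both strains (14 in the deletion strain and 9 in the wild type). The rule itself, applied to the scaled values, kept 7 genes, 4 of them among the 46. Quantile normalization kept 11 genes, with the same 4 among them.

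These 4 genes, singled out after their values were seen, were RTO4_8592, RTO4_10012, RTO4_15694 and RTO4_13509. RTO4_15694 had 86.3, 71.1 and 31.3 TPM in the deletion libraries on succinate, against 497, 204 and 137 TPM without carbon. Its wild type libraries had 38.0, 29.5 and 29.4 TPM on succinate, against 232, 111 and 60.7 TPM without carbon. Succinate was lower in each strain with no overlap. On cellobiose it had 112, 173 and 84.8 TPM in the deletion strain and 65.9, 86.6 and 169 TPM in the wild type. The mean on cellobiose lay between the means in the other media in each strain. The cellobiose libraries overlapped those without carbon in both strains, and those on succinate in the deletion strain.

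RTO4_13509 had 75.8, 33.7 and 15.4 TPM in the deletion libraries on succinate, against 107, 117 and 66.9 TPM without carbon. Its wild type libraries had 15.0, 15.7 and 33.0 TPM on succinate, against 95.4, 75.9 and 49.9 TPM without carbon. The groups overlapped in the deletion strain, where replicate 1 on succinate was high, and did not in the wild type. On cellobiose it had 95.1, 114 and 66.9 TPM in the deletion strain and 42.3, 49.2 and 104 TPM in the wild type. Its succinate level was called lower than its cellobiose level in both strains. It was lower by 1.37 ± 0.46 in the deletion strain and 1.55 ± 0.46 in the wild type (limma SE, adjusted p = 0.0493 and 0.0357). The rule largely fixed the wild type difference, and the gene was singled out after its values were seen, so these calls are a description. In the deletion strain these groups overlapped, with 75.8 TPM in replicate 1 on succinate and 66.9 TPM in replicate 3 on cellobiose.

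**Figure D4:**
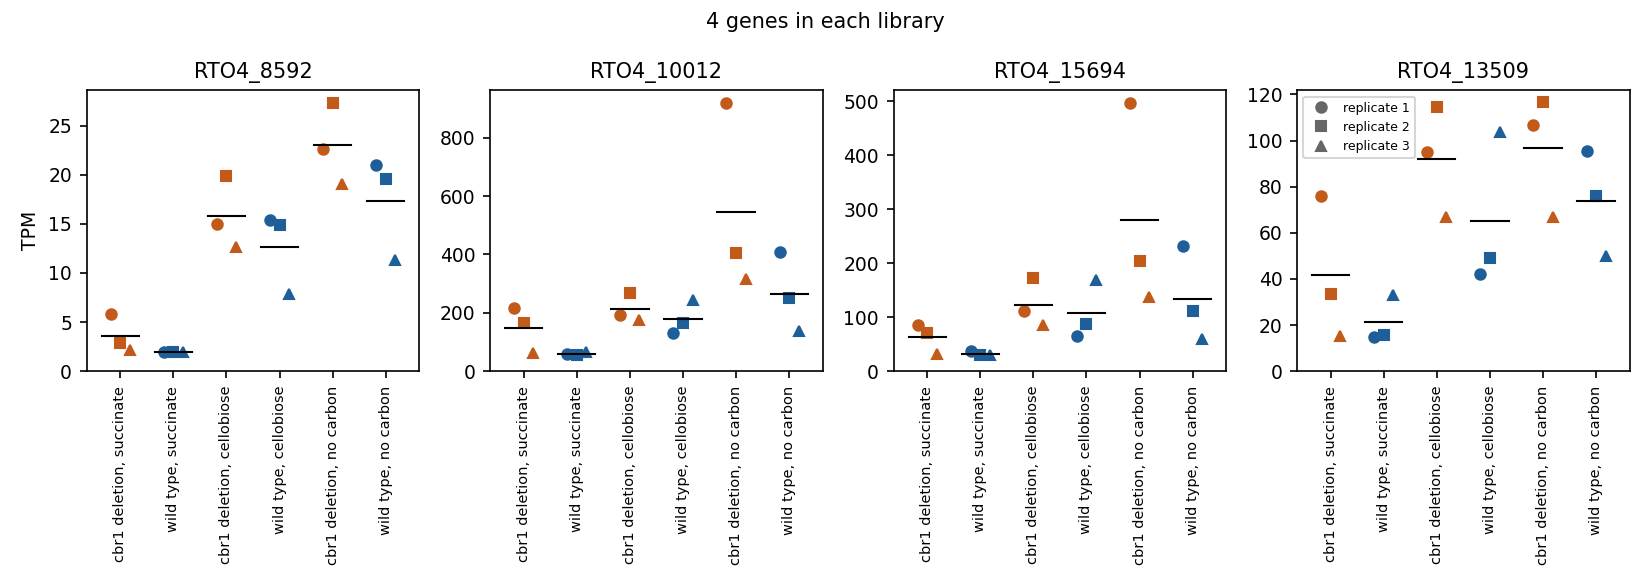
TPM of the 4 genes that the rule also kept after median-ratio scaling and after quantile normalization, in each library (points, with a shape for each replicate number), with the group mean as a line. Orange is the cbr1 deletion strain and blue the wild type. RTO4_8592 is at 5.85 TPM or less in every succinate library, and the other 3 genes spread more between replicates.

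The rule limited the difference between cellobiose and no carbon in the wild type, and in the deletion strain it limited the cellobiose level only relative to the wild type. The median difference in the deletion strain was -0.47, against -0.21 over all tested genes. In the wild type it was -0.27, against -0.13, with 10 genes above 0. Without wild type replicate 3 in medium lacking carbon the wild type median was -0.68, with 0 genes above 0, and without replicate 1 it was 0.05. For this wild type comparison limma called 0 of the 46 genes, against 30.8% of all tested genes, which the rule fixed. In the deletion strain 25 genes lay within 0.5 of no carbon and 21 genes were lower by at least 0.5, of which 5 were lower by at least 1. Limma called 1 gene lower, RTO4_15403, named after its values were seen, at -1.05 ± 0.33 (SE; adjusted p = 0.029), and 12.6% of all tested genes were called lower. In a fit restricted to these 6 libraries, 5 of the 46 genes were called lower both without and with the replicate block, and 14.4% of all tested genes were with it. In TPM, 21 of the 46 genes in the deletion strain thus go against a description as lowered on succinate only. The median there was -0.26 after median-ratio scaling and -0.30 without deletion replicate 1 in medium lacking carbon. Against replicates 1, 2 and 3 of that group alone it was -0.70, -0.64 and -0.039, with 12, 18 and 36 genes within 0.5. Whether the strains differed in this was not tested.

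RTO4_15403 had 53.6, 60.4 and 30.5 TPM in the deletion libraries on succinate, 46.9, 52.6 and 39.5 TPM on cellobiose, and 111, 103 and 77.4 TPM without carbon. Succinate and cellobiose libraries overlapped, with a difference of 0.0063 ± 0.33 (limma SE; adjusted p = 0.99). The most negative gene for cellobiose against no carbon in the deletion strain was RTO4_9222, at -1.24 ± 0.44 (limma SE; adjusted p = 0.0507). It had 48.1, 83.8 and 40.1 TPM on cellobiose, against 228, 117 and 82.7 TPM without carbon, groups that overlapped by a small margin.

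Succinate, then cellobiose, then no carbon ran from low to high by group mean in 42 of the 46 genes in the deletion strain and in 36 in the wild type, against 35.5% and 32.9% of all tested genes. The rule put succinate below no carbon in both strains and below cellobiose in the wild type, so these counts largely follow from the choice. Between succinate and cellobiose, limma called 5 of the 46 genes lower on succinate in the deletion strain, where 8.31% of all tested genes were called lower, and 19 in the wild type, where 7.43% were. The median differences were -0.80 in the deletion strain and -1.07 in the wild type, against -0.17 and -0.43 over all tested genes. Without deletion replicate 3 on succinate the deletion median was -0.49. Replicates did not overlap for 21 genes in the deletion strain (27.4% of all tested genes) and 38 in the wild type (32.6%). For the wild type this comparison was largely fixed by the rule. The counts changed when single libraries were left out. The wild type count was 4 without wild type replicate 2 on cellobiose, 5 without wild type replicate 3 on succinate and 7 without wild type replicate 3 on cellobiose. Leaving out wild type replicate 2 on succinate gave 10, and replicate 1 on cellobiose 11. After median-ratio scaling it was also 7, where 1.42% of all tested genes were called lower. In the deletion strain the count was 16 without replicate 1 on succinate, 3 without replicate 2 on succinate, and 1 without replicate 3 on succinate or without replicate 1 or 2 on cellobiose. It was 10 without wild type replicate 3 in medium lacking carbon, which enters through the shared spread.

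Closeness to no carbon on wild type cellobiose came from replicates on either side. The mean on cellobiose was lower than wild type replicates 1 and 2 without carbon by medians of 0.79 and 0.49 over the 46 genes, and higher than replicate 3 by 0.55. Of the 46 genes, 6, 24 and 17 lay within 0.5 of replicates 1, 2 and 3. Over all tested genes the same medians were -0.48, -0.34 and 0.42. For the succinate mean, 46, 46 and 5 genes were lower by at least 1 than wild type replicates 1, 2 and 3 without carbon. In the deletion strain these counts were 46, 45 and 10 for succinate.

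Values in libraries outside the rule's differences were obtained by applying the rule to 2 replicates of every group and reading the remaining one. The filter at a mean of 1 TPM still used all 18 libraries. Without replicate 1, the rule gave 83 genes, and in replicate 1 the drop on succinate was at least 1 for 42 of them in the deletion strain and 78 in the wild type. Their medians were -1.01 and -1.72, against -0.42 and -0.76 over all tested genes, of which 25.7% and 39.5% dropped by at least 1. Without replicate 2, it gave 59 genes, with drops of at least 1 in replicate 2 for 36 in the deletion strain and 56 in the wild type, against 21.3% and 34.7% of all tested genes. The medians were -1.10 and -1.57, against -0.44 and -0.65. Without replicate 3 it gave 10 genes, with such drops in replicate 3 for 8 in the deletion strain and 2 in the wild type, against 24.2% and 15.2% of all tested genes. The medians were -1.32 and -0.64, against -0.33 and -0.35. In each replicate left out, the median difference was below 0 in both strains. The same held for the median over all tested genes, so the direction alone does not set the chosen genes apart.

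Closeness on cellobiose was no more common in the chosen genes than in all tested genes in replicates 1 and 2, and in replicate 3 only 10 genes were read. In the replicate left out, wild type cellobiose lay within 0.5 of no carbon for 6 of the 83 genes, 22 of the 59 and 4 of the 10, against 34.9%, 39.2% and 28.4% of all tested genes. The median differences were -1.24 in replicate 1, -0.61 in replicate 2 and 0.73 in replicate 3, against -0.52, -0.32 and 0.37 over all tested genes. In each replicate the chosen genes thus had the median of larger size. The genes chosen on 2 replicates included 28, 37 and 7 of the 46.

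The strains were then compared within each medium. In the 46 genes the deletion strain had the higher mean on succinate for all 46 and without carbon for all 46, with medians of 0.62 and 0.61. Over all tested genes 85.3% and 74.3% were higher, with medians of 0.47 and 0.27. On succinate the differences ran from 0.21 to 1.18 and without carbon from 0.11 to 1.04. Limma called 0 of the 46 genes in either medium, against 0.0378% of all tested genes on succinate and 0.0756% without carbon, and 12 genes on succinate and 6 without carbon had an unadjusted p under 0.05, against 27.1% and 9.5% of all tested genes. The rule set no limit on these differences. It used the same libraries, so the common direction is given as a description. After median-ratio scaling, 36 of the 46 genes were higher in the deletion strain on succinate and 42 without carbon, with medians of 0.12 and 0.31.

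The strains overlapped for most genes. All deletion libraries lay above all wild type libraries for 10 of the 46 genes on succinate, where 30.1% of all tested genes did, and for 1 gene without carbon, where 3.14% did. That gene, RTO4_13958, named after its values were seen, had 34.3, 31.8 and 23.6 TPM in the deletion strain and 22.6, 22.1 and 8.37 TPM in the wild type without carbon.

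The counts on succinate changed when a single library was left out. When deletion replicate 3 was left out, limma called 14 of the 46 genes (30.4%) higher in the deletion strain and 0 lower, and 13.1% of all tested genes were called higher. The median of the 46 genes was then 0.84. Array weights, which lower the weight of libraries that deviate, also called 14 genes higher, against 12.3% of all tested genes. With these weights 75.6% of all tested genes had an adjusted p under 0.05. With all libraries kept at equal weight, the replicate block called 4 of the 46 genes higher, against 5.40% of all tested genes. The values that follow are from the fit without weights or block. RTO4_12354 showed the largest difference, 1.18 ± 0.42 (limma SE; adjusted p = 0.151). It had 48.5, 42.1 and 12.3 TPM in the deletion libraries and 9.26, 11.9 and 17.2 TPM in the wild type libraries on succinate. Replicates 1 and 2 of the deletion strain were above the wild type and replicate 3 was within it. Without that replicate the difference was 1.78 ± 0.36 (limma SE; adjusted p = 0.00729). RTO4_9222 showed the smallest, 0.21 ± 0.44 (limma SE; adjusted p = 0.744), with 29.1, 43.3 and 23.2 TPM in the deletion strain and 36.6, 26.2 and 19.3 TPM in the wild type.

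In medium lacking carbon, libraries with the same replicate number deviated together across strains. A fit restricted to these 6 libraries with that block was run after seeing the data, and 2 of the 46 genes were called higher in the deletion strain, and 1.95% of all tested genes were. These were RTO4_15694, at 1.04 ± 0.16 (limma SE; adjusted p = 0.015), and RTO4_10012, at 1.01 ± 0.17 (limma SE; adjusted p = 0.019). The first also had the largest difference of the 46 without the block, with a limma adjusted p of 0.503. The smallest was that of RTO4_16011, at 0.11 ± 0.29 (limma SE; adjusted p = 0.843), with 93.7, 95.7 and 75.7 TPM in the deletion strain and 92.9, 88.7 and 65.7 TPM in the wild type. Without wild type replicate 3 the median of the 46 genes was 0.17.

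**Figure D5:**
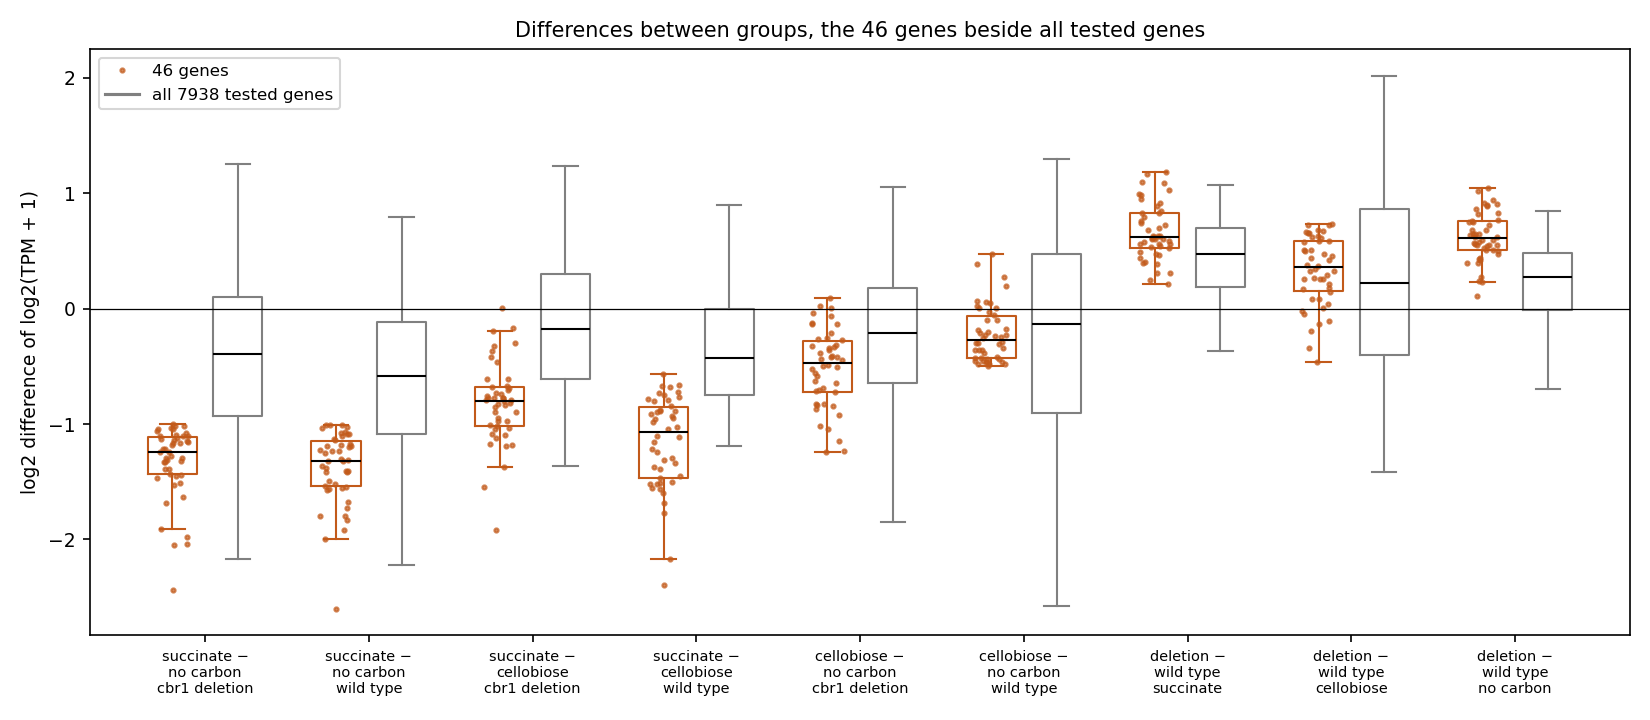
Log2 differences of the 46 genes (orange points and boxes) beside all 7938 tested genes (grey boxes) in 9 comparisons. Boxes give the quartiles and the median. Grey whiskers span the central 90% of genes, and orange whiskers reach the farthest gene within 1.5 times the box height. The first pair, the wild type comparison of cellobiose with no carbon and the comparison of the strains on cellobiose were used to choose the genes. The 46 genes lie above 0 for deletion minus wild type on succinate and without carbon, where the medians of all tested genes are 0.47 and 0.27.

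On cellobiose, where the rule limited the difference between the strains, the median was 0.36 and 39 of the 46 genes were higher in the deletion strain, against 59.3% of all tested genes. Limma called 0 of the 46 genes, and 29.0% of all tested genes were called in either direction. An unadjusted p under 0.05 was reached by 2 of the 46, and by 45.5% of all.

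Whether the drop on succinate differed between the strains was tested as an interaction. The rule kept genes with a drop of at least 1 in both strains, so it used the values tested here, and the counts describe the chosen genes. Limma called 0 of the 46 genes and 0 of all tested genes (0.0%), and at an unadjusted p under 0.05 there were 0 and 459 (5.78%). The succinate-minus-no-carbon difference of the deletion strain minus that of the wild type, which is positive where the drop was smaller in the deletion strain, had a median of 0.05 over the 46 genes and of 0.21 over all tested genes, and was above 0 for 28 of the 46 and 71.1% of all. It ran from -0.73 ± 0.62 in RTO4_9222 to 0.64 ± 0.59 in RTO4_12354 (limma SE; adjusted p = 0.999 for both). RTO4_9222 fell by 2.05 in the deletion strain and by 1.31 in the wild type. The drop was larger in the wild type for 28 of the 46 genes. The direction depended on the scaling and on single libraries. After median-ratio scaling the median was -0.14, with 13 genes positive. Without wild type replicate 3 in medium lacking carbon it was 0.41, with 45 genes positive, and without replicate 1 of that group it was -0.24, with 8 positive. Leaving out deletion replicate 3 on succinate gave 0.28, with 38 positive.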

How the data were processed

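Messenger RNA was measured in 18 libraries. The authors deposited TPM values, 1 column for each library, and each column summed to 1000000. Salmon 1.10.0 is named in the submitters' processing notes, with no role given. Genome build, annotation and gene lengths: not given in the sources used here. Columns were matched to samples by library name, and 0 columns were unused. TPM keeps no record of depth, so no counting interval is given.

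Values were transformed to log2(TPM + 1), which understates differences of low genes. Genes averaging 1 TPM or more (7938) entered a limma 3.58.1 model under R 4.3.3 that had 1 mean for each group, a shared spread and empirical Bayes moderation with a trend. The model was tested on simulated data. Adjustment was by Benjamini-Hochberg over all tested genes within each comparison. With 3 libraries against 3, an exact permutation test cannot give a p under 0.1. The p-values measure only the spread between these libraries.

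The genes and tests were chosen with earlier results of these data known. The genes named were those with the largest smaller drop, the highest level without carbon, the extremes of each strain comparison and of cellobiose against no carbon in the deletion strain, and those at each limit; others are marked. No gene lists by function could be used. Replicate numbers were taken to pair libraries where all 3 same-numbered pairs had a correlation of deviations over 0.1. This held between strains without carbon (0.606, 0.236 and 0.686), for wild type succinate with no carbon (0.313, 0.149 and 0.240) and for cellobiose with no carbon in the deletion strain (0.273, 0.110 and 0.374). Calls and SEs do not use this pairing unless the replicate block is named. Alternatives were pseudocounts of 0.1 and 5 TPM, no filter, median-ratio scaling, quantile normalization, a replicate block, array weights, separate fits and leaving out each library.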

Additional observations from a re-analysis of the deposited data

How the results depend on the processing

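The choice of genes depended on the processing. The rule kept 46 genes in TPM, 30 with a pseudocount of 5 TPM, 7 after median-ratio scaling and 11 after quantile normalization. With single libraries or replicate numbers left out it kept 10 to 89 genes, with 89, 18 and 83 after leaving out deletion replicate 1 on succinate, deletion replicate 3 on succinate and deletion replicate 3 in medium lacking carbon, 18 without wild type replicate 3 without carbon and 29 without wild type replicate 3 on cellobiose. Of the 46 genes, 1 was kept whichever of the 18 libraries was left out (RTO4_15712, named after its values were seen), and 0 were kept under every alternative.

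Calls between succinate and no carbon numbered 44 in the deletion strain and 43 in the wild type. A pseudocount of 5 TPM gave 32 and 31, where 16.0% and 19.2% of all tested genes were called lower. Separate fits gave 39 and 29, where 21.6% and 21.5% of all tested genes were. Separate fits with the replicate block gave 46 and 45, where 22.1% and 26.0% were. Median-ratio scaling gave 12 (26.1%) and 8 (17.4%), where 12.4% and 11.9% of all tested genes were called lower. Quantile normalization gave 13 (28.3%) and 7 (15.2%), where 11.8% and 10.3% of all tested genes were. Leaving out libraries gave 13 to 45 in the deletion strain and 19 to 45 in the wild type. At the wild type count of 19, 19.9% of all tested genes were called lower. The lowest were 13 and 21 without deletion replicates 1 and 2 without carbon, 15 without deletion replicate 3 on succinate, 19 and 23 without wild type replicates 1 and 2 in medium lacking carbon, and 26 without the wild type's replicate 3 on succinate.

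Between the strains on succinate, the replicate block over all libraries called 4 of the 46 genes higher, against 5.40% of all tested genes. Array weights called 14 higher, against 12.3% of all tested genes, and leaving out libraries gave 0 to 14. Without carbon, array weights called 1 gene higher, against 1.11% of all tested genes. The block in a separate fit (chosen after seeing the data) called 2 higher, against 1.95%, and leaving out libraries gave 0. On cellobiose, array weights called 4 genes higher, against 21.7% of all tested genes, and leaving out libraries gave 0. For the interaction, array weights called 3, against 13.5% of all tested genes, and leaving out libraries gave 0. For cellobiose against no carbon in the deletion strain, the replicate block over all libraries called 4 genes lower, against 13.2% of all tested genes. Separate fits called 5 lower with and 5 without the block, against 14.4% of all tested genes in each fit. For succinate against cellobiose, the block over all libraries called 10 lower in the deletion strain and 24 in the wild type. Of all tested genes, 9.96% and 9.47% were called lower there. In the deletion strain separate fits called 11 lower with the block and 4 without it, against 10.5% and 8.45% of all tested genes. In the wild type they called 2 with and 17 without it, against 0.466% and 3.17%. The cause of these changes was not tested.

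Of the genes named, RTO4_9222 on succinate turned to -0.30 under median-ratio scaling, -0.28 under quantile normalization and -0.0068 without wild type replicate 3 and -0.027 without deletion replicate 2, in a range of -0.027 to 0.44 over libraries left out. RTO4_16011 without carbon turned to -0.19 and -0.10 under these scalings and, without wild type replicate 3, -0.045 (range to 0.21). RTO4_9596 on cellobiose in the deletion strain turned to -0.065 with array weights and -0.11 without deletion replicate 3 in medium lacking carbon (range to 0.21). Depth was unknown, so what it limits cannot be stated.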

Other observations

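Of the 5 genes with the largest smaller drop, 2 carry consecutive identifiers, RTO4_15693 and RTO4_15694. This was seen after the values, and whether identifiers follow genome order is not given in the sources used here. RTO4_15693 had 75.6, 52.8 and 28.2 TPM in the deletion libraries on succinate, against 258, 131 and 115 TPM without carbon, and 37.0, 27.3 and 29.8 TPM in the wild type on succinate, against 129, 83.7 and 75.0 TPM without carbon. In both genes deletion replicate 1 without carbon was the highest of all 18 libraries. On cellobiose wild type replicate 3 was the highest wild type library, at 144 TPM for RTO4_15693 and 169 TPM for RTO4_15694. Such orders were common, since these libraries were the highest of their groups for 33 and 35 of the 46 genes. Of all tested genes, 51.4% and 46.9% had the same order.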
